A study of Homo sapiens with 6 samples.

Results

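Transcript levels of 37 enzymes, carriers and regulators of the citrate cycle, of pyruvate entry and of anaplerosis were compared between HT-29 xenograft tumours given shock waves and untreated ones. The genes were taken by symbol from a table of 29236 gene symbols, all 37 were found in it, and all 37 were among the 13448 genes that could be tested. HT-29 cells derive from a human colorectal adenocarcinoma, carry the genotype label WT in both groups, and were grown here as tumours in a host animal. The control tumours were untreated, the others received extracorporeal shock waves (short acoustic pressure pulses) at 60 mJ, and both were taken at day 15. The titles of the shock wave samples also hold the letters con, and the groups here follow the treatment label. Each group held 3 libraries, and since the labels do not tie libraries to animals, the spread behind each p-value is that between these libraries, which may be technical. Levels are FPKM, read fragments scaled to transcript length and library size, summed over all listed transcripts of a gene.

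The citrate cycle oxidises acetyl groups in the mitochondrial matrix and passes the electrons to the respiratory chain. Pyruvate enters the matrix through the mitochondrial pyruvate carrier and is turned into acetyl-CoA by the pyruvate dehydrogenase complex, which kinases switch off and phosphatases switch on. Anaplerotic enzymes refill the cycle from pyruvate and glutamine, and colorectal cancer cells draw citrate, malate and aspartate from it for lipid, NADPH and nucleotide synthesis.

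Library totals recovered from the values ran from 48300000 to 58540000 reads. Shock wave replicate 3 stood apart from the other libraries, with the highest summed FPKM (571671, against 478228 to 512605). The slope of log2 level minus the control mean on transcript length was -0.24 per doubling in it. In shock wave replicate 1 this slope was -0.11 and in replicate 2 it was -0.03. The control slopes, -0.0090 to 0.0048, centre on 0 by construction, since the mean of the controls was subtracted. The 10 colonic epithelial markers, among them EPCAM, CDH1 and KRT20, summed to 5125 to 6015 FPKM in untreated tumours and 5306 to 6869 in treated tumours. Fibroblast markers summed to at most 26.6 FPKM, macrophage markers to at most 18.6, adipocyte markers to at most 7.13 and pericyte markers to at most 3.80. Of the markers, 2 of 7 fibroblast, 2 of 6 macrophage and 3 of 5 adipocyte genes were not among the listed symbols, so they had no measured level. Endothelial, skeletal muscle and erythroid markers each stayed under 1 FPKM, and for all 8 marker lists the groups overlapped. The sums are of human gene symbols, and how far cells of the host animal count in them was not tested. They therefore do not measure how much host tissue the tumours held. In bulk tumour RNA, fewer cells of a type and less RNA per cell cannot be told apart.

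Most of the enzymes of the cycle were measured at like levels in both groups. Among the 37 genes 21 had a positive and 16 a negative log2 change, and the median was 0.04, where 48.4% of all genes tested had a positive change and their median was -0.01. The log2 change was within 0.25 of 0 for 25 of the 37, and the level stayed within 1.6-fold across all 6 libraries for 23. None passed the adjusted threshold of 0.05 in limma, in which 0% of the 13448 genes passed in either direction (higher 0%, lower 0%). At an unadjusted p under 0.05 stood 2 of the 37, MPC1 and PCK2, where 6.93% of all genes did. The groups did not overlap for 5 of the 37, or 13.5%, where this was so for 16.4% of all genes tested. Of these 5, MPC1, SDHA and SDHD were higher in every shock wave tumour (3 of 37, against 7.75% of all genes), and PCK2 and PDP2 lower (2 of 37, against 8.69%). In reads not divided by length the groups did not overlap for 7 of the 37, where 16.3% of all genes did not. Higher were GOT1, MPC1, PDHA1 and SDHD (8.04% of all genes) and lower DLST, PDK2 and SDHC (8.24%), so MPC1 and SDHD were separated in both units. In protein-coding transcripts alone, a setting added after the data were seen, SDHD stayed separated, and the groups overlapped for MPC1, SDHA, PCK2 and PDP2. PDHA1, PDHB and GOT1 were also separated there, higher in the shock wave tumours, as were PDK2 and PC, lower. The share of all genes separated in this setting was not computed.

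**Figure D1:**
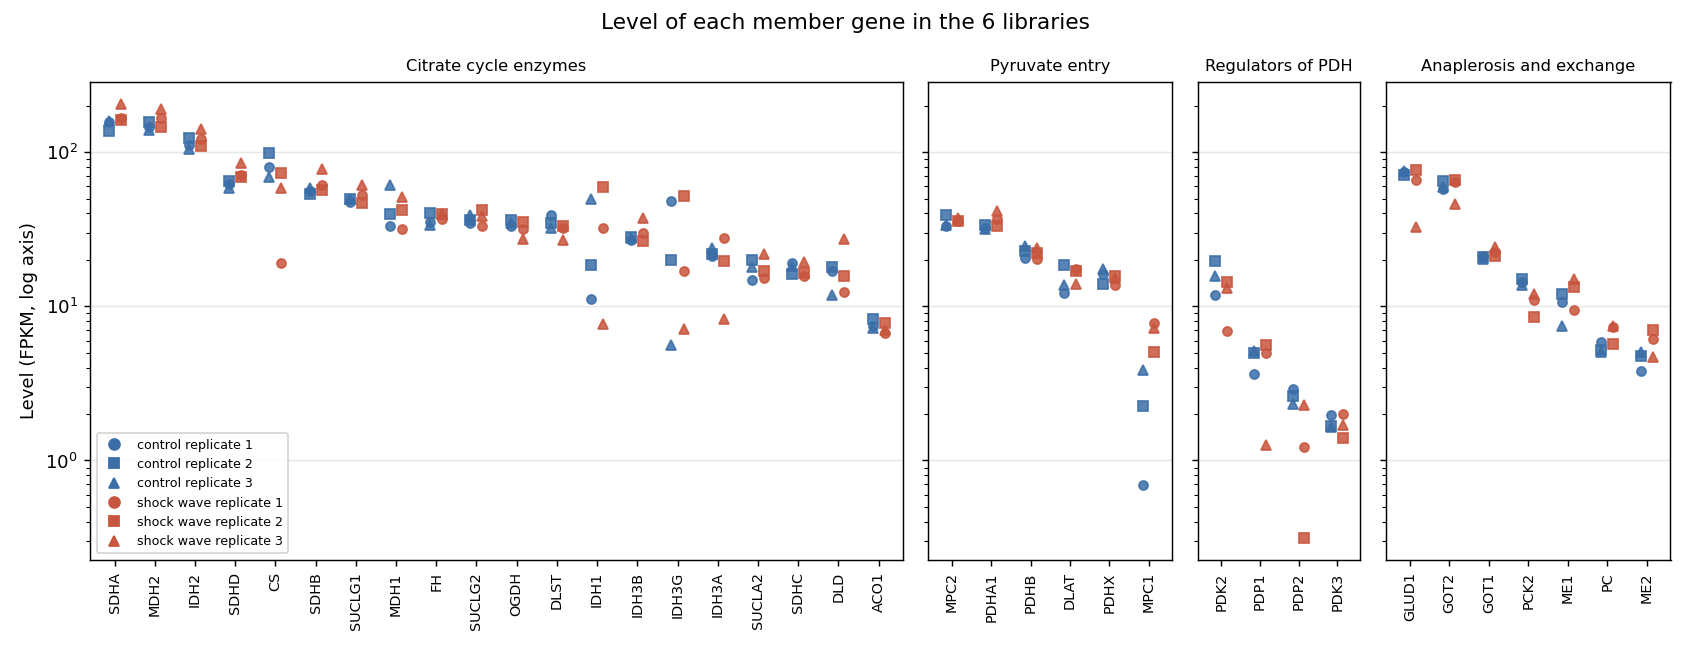
Level of each of the 37 genes in each library (FPKM on a log axis), by role and ordered by mean level within a role. Blue marks are the 3 controls and red marks the 3 shock wave tumours. Blue and red marks lie together for most genes, CS is low in shock wave replicate 1 at 19.2 FPKM, and MPC1 has all red marks above all blue ones.

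Citrate synthase, CS, which joins acetyl-CoA to oxaloacetate, lies on chromosome 12 at 56271699 to 56300392 on the minus strand (hg38 and GENCODE release 29, as for the genes that follow). It measured 79.7, 98.6 and 68.5 FPKM in untreated tumours and 19.2, 73.7 and 58.6 in treated tumours. The groups overlapped because shock wave replicate 2 lay above control replicate 3, and replicate 1 was far below all others. The limma log2 change was -0.88 (SE 0.47, adjusted p = 0.648), and without shock wave replicate 1 it was -0.30.

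The leading transcript of CS, ENST00000351328, was separated between the groups where the gene was not. It measured 60.1, 76.5 and 60.3 FPKM in untreated tumours and 10.7, 28.9 and 38.4 in treated tumours, a log2 change of -1.47 with SE 0.46 (limma adjusted p = 0.687 over 28517 transcripts). A second coding transcript, ENST00000548567, was at 0.0376, 1.41 and 0.0406 FPKM in untreated tumours and at 0, 34.3 and 14.3 in treated tumours. In GENCODE release 29 the second transcript has an extra exon near its start and an annotated coding sequence that begins further downstream. In shock wave replicate 1 neither transcript was high, and the gene had 2148 recovered reads there, against 9027 to 13925 in the other 5 libraries. Of the genes compared here, 100 transcripts were tested singly in limma, and 0 passed the adjusted threshold of 0.05. Over all 28517 transcripts 58 passed. An unadjusted limma p under 0.05 was found for 13% of the 100, against 6.58% of all transcripts. How often groups are separated over all transcripts was not computed, here and for the transcripts that follow.

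Aconitase and the isocitrate dehydrogenases follow citrate synthase. ACO1, the cytosolic aconitase, was the lowest of the cycle group, at 7.42, 8.22 and 7.21 FPKM in untreated tumours and 6.72, 7.78 and 7.04 in treated tumours. IDH2, the mitochondrial NADP-dependent enzyme, measured 113 ± 9.21 FPKM in untreated tumours and 124 ± 16.0 in treated tumours (SD, n = 3 each). IDH1, its cytosolic counterpart, ran over a 7.81-fold range, from 7.64 FPKM in shock wave replicate 3 to 59.7 in shock wave replicate 2. That spread within the shock wave group was larger than the difference of the means, 26.5 against 33.2 FPKM.

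The leading transcript of IDH1 held 85, 89.6 and 10.9% of the gene in untreated tumours and 94.7, 97.6 and 83.5% in treated tumours. In control replicate 3 another transcript, ENST00000415913, with the same annotated coding sequence and a different first exon, held 81.0% of the gene.

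The NAD-dependent isocitrate dehydrogenase is built from the products of IDH3A, IDH3B and IDH3G. IDH3B was steady as a sum of all transcripts, at 27.6 ± 0.591 FPKM in untreated tumours and 31.1 ± 5.53 in treated tumours. Coding transcripts held 25.3 to 43.7% of it. IDH3A was low in 1 library, with 21.4, 21.8 and 23.8 FPKM in untreated tumours and 27.7, 19.5 and 8.25 in treated tumours. Its leading transcript, ENST00000558535, has no annotated coding sequence and was at 3.31 FPKM in shock wave replicate 3. In coding transcripts alone IDH3A measured 2.77, 2.31 and 2.78 FPKM in untreated tumours and 2.09, 2.60 and 3.74 in treated tumours. Shock wave replicate 3 was thus the highest there. IDH3G had the widest range of the cycle group, 9.31-fold, at 48.0, 20.1 and 5.61 FPKM in untreated tumours and 17.0, 52.3 and 7.10 in treated tumours. Its high and low values occurred in both groups, and the gene SSR4, which overlaps it on the opposite strand, measured 252.7 to 439.7 FPKM. The part of SSR4 reads in these values was not tested.

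The 2-oxoglutarate dehydrogenase complex and succinyl-CoA ligase carry the cycle from 2-oxoglutarate to succinate. OGDH measured 34.6 ± 1.6 FPKM in untreated tumours and 31.4 ± 4.06 in treated tumours, and DLST, its acyltransferase, 35.3 ± 3.35 and 30.8 ± 3.22. DLD, the dehydrogenase shared with the pyruvate complex, reached 27.3 FPKM in shock wave replicate 3, while the other 5 libraries held 11.8 to 18.0. SUCLG1, the common subunit of the ligase, measured 48.8 ± 1.07 and 53.8 ± 7.31 FPKM. The subunits that set its nucleotide, SUCLA2 for ATP and SUCLG2 for GTP, measured 17.6 ± 2.54 and 36.8 ± 2.30 FPKM in untreated tumours and 18.0 ± 3.33 and 37.9 ± 4.44 in treated tumours. For each of these 6 genes the groups overlapped, and limma adjusted p ran from 0.662 for DLST to 0.957 for SUCLA2.

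Succinate dehydrogenase, which is also respiratory complex II, held 2 of the 3 genes with higher and separated groups. SDHA, its flavoprotein subunit, lies on chromosome 5 at 218241 to 256700 (plus strand) and was the most abundant of the 37. It measured 156, 136 and 159 FPKM in untreated tumours and 166, 161 and 205 in treated tumours. The gap between the highest control and the lowest shock wave tumour was small, and shock wave replicate 3 was far above the rest. The limma log2 change was 0.23 (SE 0.14, adjusted p = 0.648), and it was 0.12 without replicate 3 and 0.05 with quantile normalization. In coding transcripts alone SDHA overlapped widely, at 116, 22.1 and 25.8 FPKM in untreated tumours against 40.6, 99.9 and 53.0. Its leading transcript, ENST00000505555, is annotated as having a retained intron and had a log2 change of 0.09.

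SDHD, a membrane anchor of the complex, lies on chromosome 11 at 112086773 to 112120013 on the plus strand. It measured 62.2, 65.3 and 58.7 FPKM in untreated tumours and 71.2, 69.1 and 85.1 in treated tumours, a log2 change of 0.27 with SE 0.13 (limma adjusted p = 0.648). All 3 shock wave tumours were above all controls, also in reads not divided by length and in coding transcripts alone. The gene TIMM8B overlaps SDHD on the opposite strand and measured 52.1, 18.8 and 21.8 FPKM in untreated tumours and 62.7, 23.5 and 86.4 in treated tumours, and its part in the SDHD values was not tested. The iron-sulphur subunit SDHB measured 55.8 ± 2.35 and 65.3 ± 11.2 FPKM with overlapping groups. The other anchor, SDHC, measured 17.9 ± 1.54 and 17.2 ± 1.86.

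The promoters of SDHA and SDHD are shown because both genes were higher in every shock wave tumour, beside that of PCK2, which was lower. Those of MPC1, also higher in every shock wave tumour, and of PDP2, also lower, are not shown. Neither MPC1 nor PDP2 is among the genes with a match named below. Whether matches go with the direction of change was not tested. The letters are the 250 bases before the RefSeq start (GRCh38.p14), and capitals mark matches on either strand to GCGC, any base, then TGCGC, the recognition letters of NRF1, a transcription factor of nuclear genes for mitochondrial proteins. The windows are chr5:218070-218319, chr11:112086623-112086872 and chr14:24094061-24094310, all on the plus strand.
SDHA: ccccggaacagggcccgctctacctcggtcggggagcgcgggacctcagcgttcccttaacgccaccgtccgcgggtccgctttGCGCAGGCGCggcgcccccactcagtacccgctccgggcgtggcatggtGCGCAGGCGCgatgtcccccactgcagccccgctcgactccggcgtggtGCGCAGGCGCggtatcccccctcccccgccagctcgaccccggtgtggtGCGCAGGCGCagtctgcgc
SDHD: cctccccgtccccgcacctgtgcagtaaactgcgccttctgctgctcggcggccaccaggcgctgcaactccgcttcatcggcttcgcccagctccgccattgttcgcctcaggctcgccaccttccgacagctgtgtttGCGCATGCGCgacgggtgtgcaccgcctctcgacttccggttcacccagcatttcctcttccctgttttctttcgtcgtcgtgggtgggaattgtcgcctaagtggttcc
PCK2: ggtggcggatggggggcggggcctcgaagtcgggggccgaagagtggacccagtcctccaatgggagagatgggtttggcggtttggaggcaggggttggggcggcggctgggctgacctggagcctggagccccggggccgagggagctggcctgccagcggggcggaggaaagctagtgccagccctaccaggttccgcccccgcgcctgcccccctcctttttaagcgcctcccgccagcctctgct
The SDHA window held 4 matches, the SDHD window 1 and the PCK2 window 0. Of the 34 genes of the group with a promoter in the RefSeq table, 7 held a match (20.6%), namely GLUD1, IDH3A, IDH3G, MPC2, SDHA, SDHD and SUCLA2. A match was found in 5.07% of all 35116 promoters listed there. The group is counted by gene, and the shares over all, here and below, by promoter and not only for genes tested. Whether the shares differ was not tested. The other 5 of the 7 had overlapping groups. The ATF4 element TTGCATCA was in the window of GOT1 alone (0.772% of all promoters), and TNAAGGTCA, the letters of oestrogen-related receptors, in none of the 34 (0.854% of all). CCGGAAGT, the letters of ETS factors, was in the windows of DLST, IDH3B, MDH2 and SDHD (3.42% of all).

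Fumarase and malate dehydrogenase close the cycle. FH measured 36.5 ± 3.48 FPKM in untreated tumours and 38.8 ± 1.53 in treated tumours. MDH2, the mitochondrial malate dehydrogenase, measured 147 ± 8.96 and 167 ± 21.9. MDH1, the cytosolic enzyme of the malate-aspartate shuttle, measured 44.6 ± 14.4 and 41.7 ± 9.79.

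The reads of MDH1 were placed on different transcripts in different libraries of the same group. ENST00000233114 held 89.6, 18.3 and 73.6% of the gene in untreated tumours and 21.0, 86.1 and 13.7% in treated tumours. ENST00000539945, which has another first exon and its own annotated start codon, held 60.8% in control replicate 2, 62.3% in shock wave replicate 1 and 38.6% in shock wave replicate 3, and at most 0.142% in the other 3 libraries. The exchange did not follow the treatment.

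Of the genes of pyruvate entry, MPC1 had the largest change of all 37. MPC1 and MPC2 form the carrier that brings pyruvate across the inner mitochondrial membrane. MPC1 lies on chromosome 6 at 166364919 to 166383013 on the minus strand and measured 0.696, 2.27 and 3.89 FPKM in untreated tumours and 7.82, 5.07 and 7.20 in treated tumours. Every shock wave tumour was above every control, and the ratio of the means was 2.93. In coding transcripts alone the groups overlapped, at 0.529, 2.27 and 2.84 FPKM in untreated tumours against 2.59, 5.07 and 4.57, and these held 33.2% of the gene in shock wave replicate 1. The limma log2 change was 1.34 (SE 0.39, unadjusted p = 0.0118, adjusted p = 0.648), and it lay between 0.89 and 1.77 in the 18 other settings tried.

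The MPC1 level rested on few reads, 35, 123 and 161 in untreated tumours and 323, 288 and 374 in treated tumours. These were spread over several transcripts, and no transcript led in all libraries. ENST00000621685, a coding transcript, had 18, 0 and 0 reads in untreated tumours and 101, 84 and 149 in treated tumours (log2 change 1.27, SE 0.22, limma adjusted p = 0.191 over all transcripts). It passed the filter of 1 FPKM in 3 or more samples only through the shock wave tumours. The sign of its change was thus favoured in advance, and the fit is not further evidence on MPC1. MPC2 was abundant and steady, at 33.2, 39.1 and 33.7 FPKM in untreated tumours and 35.5, 35.6 and 37.2 in treated tumours.

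For the genes of the pyruvate dehydrogenase complex the groups overlapped in FPKM summed over all transcripts. PDHA1, the catalytic alpha subunit, measured 32.5 ± 0.904 FPKM in untreated tumours and 37.2 ± 4.11 in treated tumours, and PDHB, the beta subunit, 22.6 ± 2.09 and 22.1 ± 1.75. DLAT, the acetyltransferase, measured 14.8 ± 3.26 and 16.2 ± 1.87, and PDHX, which binds the dehydrogenase to the core, 15.9 ± 1.73 and 14.9 ± 1.07. Limma adjusted p for these 4 ran from 0.655 to 0.944. In reads not divided by length PDHA1 was separated, higher in the shock wave tumours. In coding transcripts alone both PDHA1 and PDHB were separated, also higher.

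Within PDHB the transcripts had changes of opposite sign. The coding transcript ENST00000302746 measured 5.60, 4.27 and 4.83 FPKM in untreated tumours and 10.4, 6.37 and 10.2 in treated tumours, a log2 change of 0.74 with SE 0.25 (limma adjusted p = 0.731). ENST00000461692, annotated as having a retained intron, measured 12.8, 17.1 and 17.3 FPKM in untreated tumours and 8.42, 15 and 12.4 in treated tumours. The coding transcript was separated between the groups, and the other was not.

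The 4 regulators of the complex summed to 24.7 ± 4.3 FPKM in untreated tumours and 18.4 ± 3.3 in treated tumours, and the groups overlapped. This sum was largely PDK2 and pools kinases with phosphatases. The other roles summed to 1007 ± 11.9 against 1063 ± 79.7 FPKM (cycle), 123 ± 7.8 against 133 ± 5.1 (entry) and 189 ± 4.1 against 176 ± 29.4 (anaplerosis). Each of the 4 regulators had a negative log2 change, which was not stable for PDK3 and PDP1. PDK3 turned to 0.03 with quantile normalization, 0.016 in voom, 0.0087 in coding transcripts alone and 0.52 for its leading transcript, and it was also positive with control replicate 1 or shock wave replicate 2 left out. PDP1 turned to 0.18 without shock wave replicate 3. PDK2, a kinase that switches the complex off, was the highest of them, at 11.9, 19.8 and 15.7 FPKM in untreated tumours and 6.93, 14.4 and 13.2 in treated tumours. Its groups overlapped in FPKM, and in reads scaled to library size alone they did not. PDP1, a phosphatase that switches the complex on, measured 3.65, 4.98 and 5.10 FPKM in untreated tumours and 4.97, 5.62 and 1.26 in treated tumours, so that shock wave replicate 3 alone was low.

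PDP2, the second phosphatase, lies on chromosome 16 at 66880361 to 66895754 (plus strand). It measured 2.91, 2.60 and 2.31 FPKM in untreated tumours and 1.21, 0.315 and 2.30 in treated tumours, a log2 change of -0.76 with SE 0.33 (limma adjusted p = 0.648). The groups were barely separated, with control replicate 3 and shock wave replicate 3 almost equal. In recovered reads they overlapped, with 734, 750 and 491 in untreated tumours and 353, 14 and 961 in treated tumours.

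PDK3, another kinase of the complex, was the lowest regulator and its level overlapped between the groups, but the share of its 2 coding transcripts did not overlap between groups. The gene measured 1.76 ± 0.176 FPKM in untreated tumours and 1.70 ± 0.301 in treated tumours. ENST00000441463 held 38.7, 41.2 and 27.5% of it in untreated tumours and 87.2, 79.5 and 70.0% in treated tumours. ENST00000379162 held 51.4, 53.3 and 66.1% in untreated tumours and 10.5, 17.2 and 27.4% in treated tumours. The first differed by 43.1 percentage points (exact two-sided permutation p = 0.1, the smallest that 3 against 3 allows), and was singled out among the 37 after the values were seen. In reads these were 76, 73 and 42 against 185, 118 and 133 for the first, and 95, 89 and 95 against 21, 24 and 49 for the second. As a transcript of its own, ENST00000441463 had a limma log2 change of 0.52 (SE 0.21, adjusted p = 0.752). Transcripts, like genes, entered the fit at 1 FPKM in 3 or more samples. ENST00000441463 reached this only through the shock wave tumours, so its sign was favoured in advance. ENST00000379162 did not reach it and was not tested.

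The coding ends of these PDK3 transcripts are shown because the annotated proteins of the pair differ at their ends. Both lie on chromosome X (hg38, plus strand), share their first 1217 coding bases and then part, and capitals mark the bases that are not shared, up to and including the stop codon.
ENST00000379162: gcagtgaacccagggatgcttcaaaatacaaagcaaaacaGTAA
ENST00000441463: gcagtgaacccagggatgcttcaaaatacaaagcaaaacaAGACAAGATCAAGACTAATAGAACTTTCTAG
ENST00000379162 reads on in the exon that starts at 24533929 and encodes 406 residues. ENST00000441463 joins an exon that starts at 24539134 and encodes 415. The read counts above are those that the authors' processing placed on each transcript as a whole, and reads over these ends alone were not analysed here.

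**Figure D2:**
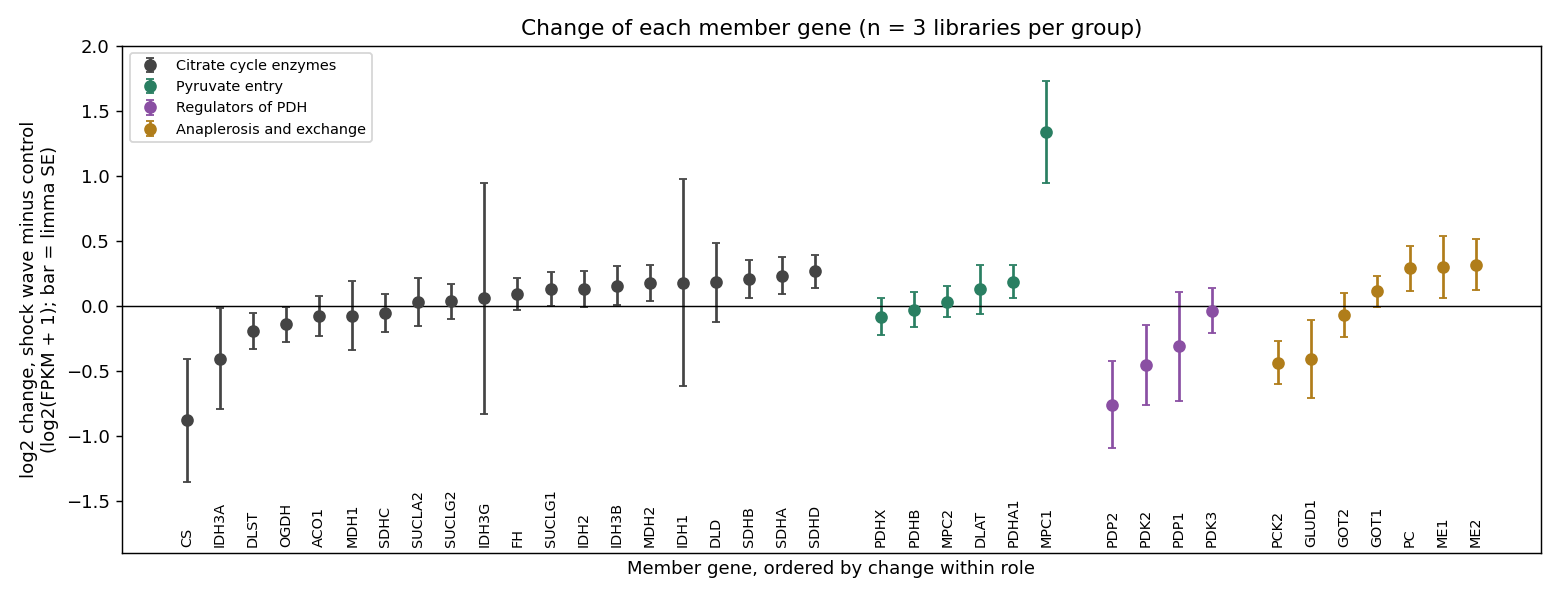
Log2 change of each of the 37 genes, shock wave minus control, on log2(FPKM + 1), with the limma SE as bars, ordered within each role. Most points lie within 0.25 of 0, all 4 regulators lie below 0 (PDK3 above it with quantile normalization, PDP1 without shock wave replicate 3), MPC1 is the highest at 1.34 and CS the lowest at -0.88.

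Among the genes of anaplerosis and exchange, PCK2 had groups that did not overlap, with all shock wave tumours below. PCK2 is the mitochondrial phosphoenolpyruvate carboxykinase, which turns oxaloacetate into phosphoenolpyruvate, and lies on chromosome 14 at 24094138 to 24110598 (plus strand). It measured 14.4, 15.1 and 13.7 FPKM in untreated tumours and 11, 8.51 and 12 in treated tumours, a ratio of the means of 0.728. The limma log2 change was -0.44 (SE 0.17, unadjusted p = 0.0346, adjusted p = 0.648).

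In recovered reads the groups overlapped, with 1079, 1685 and 1465 in untreated tumours and 1278, 874 and 655 in treated tumours. ENST00000545054 had 95, 915 and 900 reads in untreated tumours and 0 in each shock wave tumour, where a count of 0 allows up to 3 by sampling alone. That limit leaves out how reads were placed among the transcripts of a gene. ENST00000539945 of MDH1, for example, had 0, 1926 and 6 reads within the controls. The part of such placing in the PCK2 counts was not tested. The leading transcript, ENST00000216780, had a log2 change of the other sign, 0.58 (SE 0.56, limma adjusted p = 0.809).

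PC, pyruvate carboxylase, makes oxaloacetate from pyruvate and measured 5.87, 5.17 and 5.04 FPKM in untreated tumours and 7.37, 5.66 and 7.41 in treated tumours. The groups overlapped, and the limma log2 change was 0.29 (SE 0.17, adjusted p = 0.648). A short transcript with no annotated coding sequence, ENST00000528224, held 17.5 ± 7.05% of the gene in untreated tumours and 39.0 ± 11.3% in treated tumours. In coding transcripts alone PC measured 3.57 ± 0.225 and 3.11 ± 0.227 FPKM, lower in each shock wave tumour.

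Malic enzymes convert malate to pyruvate with NADPH or NADH. ME1, the cytosolic form, measured 10.6, 11.9 and 7.47 FPKM in untreated tumours and 9.42, 13.3 and 14.9 in treated tumours. ME2, the mitochondrial form and the lowest gene of this role, measured 3.82, 4.75 and 5.06 FPKM in untreated tumours and 6.12, 7.0 and 4.71 in treated tumours. Shock wave replicate 1 of ME1 and replicate 3 of ME2 lay among the controls, and limma adjusted p was 0.674 and 0.648.

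GLUD1, glutamate dehydrogenase, was the most abundant of this role and low in 1 library. It measured 73.9, 70.9 and 75.6 FPKM in untreated tumours and 66.3, 76.4 and 32.9 in treated tumours. The mitochondrial aspartate aminotransferase GOT2 was lowest in the same library, at 46.0 FPKM against 57.6 to 65.5 elsewhere. The cytosolic GOT1 was not, at 20.8 ± 0.408 FPKM in untreated tumours and 22.7 ± 1.6 in treated tumours.

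Ratios between genes of 1 library do not depend on how the library was scaled, and 15 pairs of subunits or isoenzymes were compared. They do depend on a length trend and on which transcripts held the reads. SDHC and SDHD, for example, had mean transcript lengths of 6800 and 1415 bases. In coding transcripts alone the groups overlapped for MPC1 and for PCK2. No ratio was computed with the length trend removed or in coding transcripts alone. The groups overlapped for 12. The SDHA to SDHB ratio was the steadiest, between 2.55 and 2.83 in all 6 libraries. The PC to PCK2 ratio was 0.408, 0.342 and 0.367 in untreated tumours and 0.672, 0.666 and 0.617 in treated tumours, and MPC1 to MPC2 was 0.0210, 0.0581 and 0.115 against 0.220, 0.142 and 0.193. The SDHC to SDHD ratio was lower in each shock wave tumour, at 0.308, 0.248 and 0.313 against 0.222, 0.240 and 0.227. These 3 pairs contain the genes already described as separated, so they are not further evidence.

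**Figure D3:**
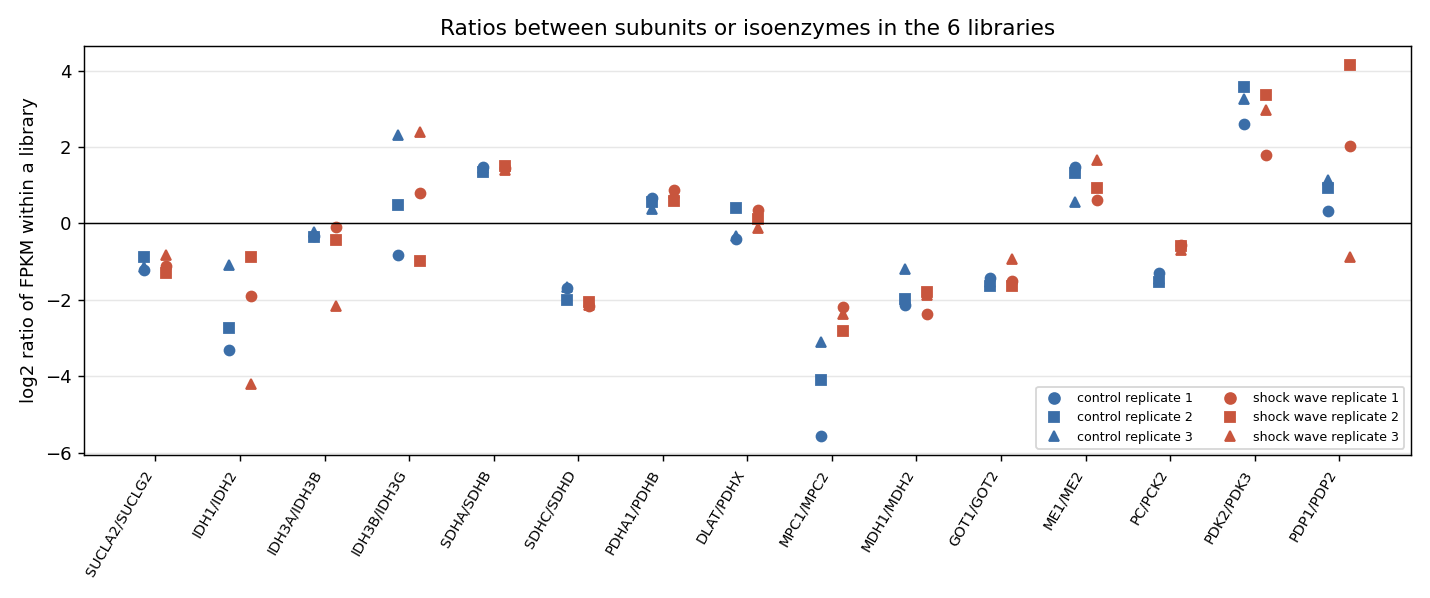
Log2 ratio of FPKM within a library for 15 pairs, with blue marks for the 3 controls and red marks for the 3 shock wave tumours. MPC1/MPC2 and PC/PCK2 have all red marks above all blue ones, SDHC/SDHD has all red marks below, and SDHA/SDHB hardly moves.

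Shock wave replicate 3 was the highest of the 6 libraries for 14 of the 37 genes and the lowest for 7, where over all genes tested it was the highest for 25% and the lowest for 35.2%. Of the 13 genes with a mean transcript length under 2000 bases it was the highest for 5 and the lowest for 0, where among all 5709 genes of that length it was the highest for 2358 and the lowest for 1011. Of the 24 longer ones it was the highest for 9 and the lowest for 7, among them GLUD1, IDH1, IDH3A and PDP1, where among all 7728 genes of that length it was the highest for 996 and the lowest for 3723. The part of transcript length in single values was not tested, and with a length trend removed per library SDHD had a log2 change of 0.19, SDHA 0.23 and MPC1 1.17.

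**Figure D4:**
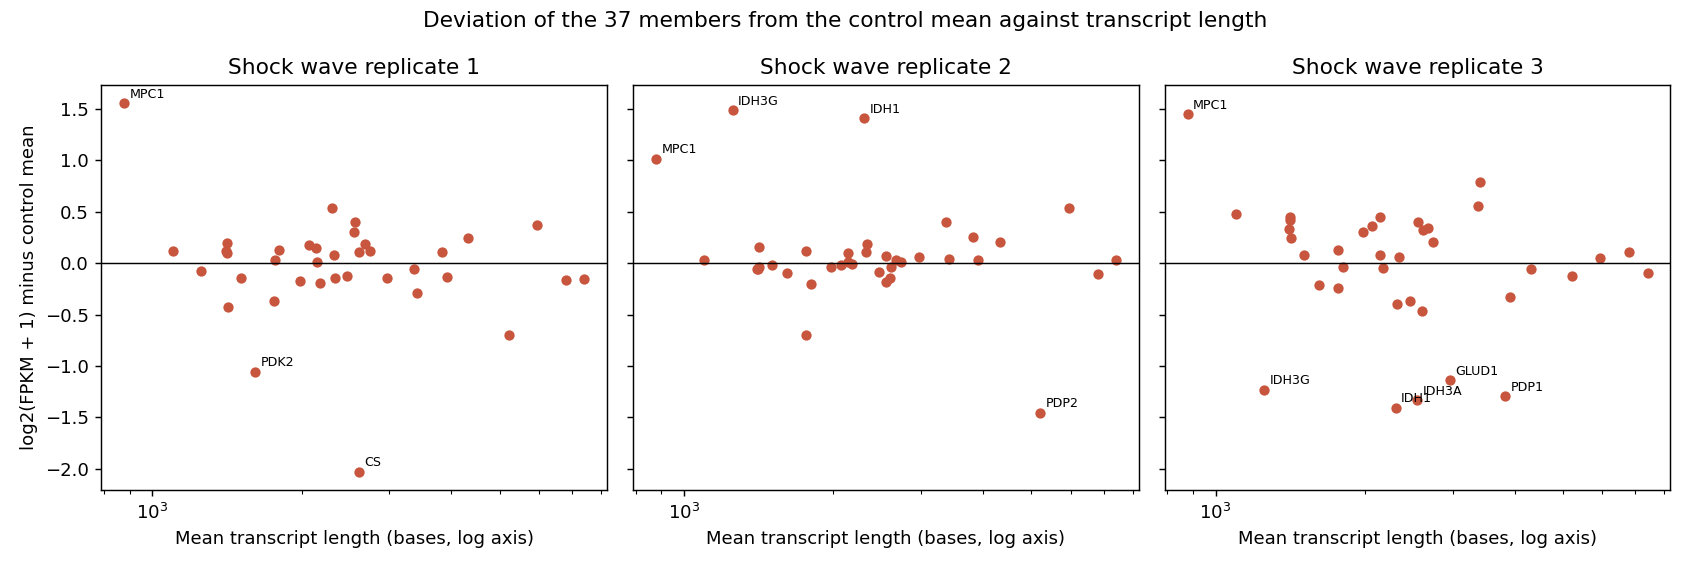
Deviation of each of the 37 genes from the control mean, on log2(FPKM + 1), against mean transcript length in bases on a log axis, in the 3 shock wave libraries. MPC1 is above 0 in all 3 panels, CS is below 0 most in replicate 1, and the spread is widest in replicate 3.

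Of 50 further genes of the pathway, among them the remaining isoenzymes, mitochondrial carriers, lipoate and complex II assembly factors and enzymes that feed the cycle, 44 were tested and 0 passed the adjusted threshold. At an unadjusted limma p under 0.05 stood 2 (4.55%, against 6.93% of all genes tested). A positive log2 change was found for 25 and a negative one for 19, with a median of 0.03. SLC25A10, the dicarboxylate carrier, measured 38.9 ± 3.05 FPKM in untreated tumours and 54.5 ± 9.30 in treated tumours (log2 0.47, SE 0.15, limma adjusted p = 0.648). ACAT1, the mitochondrial acetoacetyl-CoA thiolase, measured 19.9 ± 1.10 and 24.6 ± 1.13 FPKM. HLCS, which attaches biotin to carboxylases such as PC, measured 2.50 ± 0.938 and 1.40 ± 0.135, and LIAS, which makes the lipoate of DLAT and DLST, 6.65 ± 0.994 and 4.92 ± 0.162. For these 4 genes, which had the smallest p in each direction, the groups did not overlap and limma adjusted p was 0.648 each. The groups did not overlap for 8 of the 44 (18.2%), where this was so for 16.4% of all genes tested. The others of the 8 were SLC25A11 and SDHAF4, higher, and ACLY and SLC25A51, lower.

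Reads of near-identical copies limit some of these values. For 11 of the 37 genes GENCODE release 29 holds pseudogenes named after them, and where these were in the table they stayed at or under 4.24 FPKM. SDHAP2 was at 0 in the controls and at 0, 4.24 and 2.33 FPKM in the shock wave tumours. The span of 24 of the 37 overlaps another gene, 23 of them on the opposite strand, and the sources used here do not state whether counting used strand.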

How the data were processed

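RNA of 6 HT-29 xenograft samples was sequenced from libraries made with a SMARTER mRNA kit after Trizol extraction, per the labels' protocols. The authors deposited 1 table of 131516 transcripts with normalized values, taken here as FPKM because value times transcript length gave whole reads for 99.64 to 99.70% of values worth up to 100 reads (within 0.05 of a whole number). The submitters' processing notes name the build hg38; aligner and quantifier: not given in the sources used here. Rows without a symbol (15031, 9.75 to 11.4% of summed FPKM) carry no gene and were left out, so reads of a gene that lie on them would be missing from its level. No sample column was unused.

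FPKM was summed per symbol over 116485 rows. Genes reaching 1 FPKM in 3 or more samples went into limma (version 3.58.1, R 4.3.3), fitted to log2(FPKM + 1) values using its trended prior variance, and p was adjusted by Benjamini-Hochberg over all genes. The log2 scale with a pseudocount of 1 understates changes of low genes. The gene list, the further pathway genes and the tests were chosen with earlier results of these data known. Genes are given by sample where groups were separated, unadjusted p was under 0.05, the level was highest or lowest in a role, or the leading transcript's share differed by over 30 points. Others were given this way after their values were seen (CS, IDH3A, IDH3G, PDP1, PC, ME1 and transcripts other than a leading one that met the rule). Of the 50 further genes, 1 was matched through an older name. Recovered reads used GENCODE release 29 lengths, which 116423 rows had. In a test on simulated data with 200 of 13448 genes changed, limma found 33.4% of genes with a log2 change of 1 and 78.4% of those with 2. Precision is limited by 3 libraries per group and, for low genes, by the read counts printed beside them.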

Additional observations from a re-analysis of the deposited data

How the results depend on the processing

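In none of the 18 alternatives did any of the 37 genes pass the adjusted threshold (smallest limma adjusted p 0.322). Over all genes, the counts called higher ran from 0 to 1 and lower from 0 to 4 with 1 library left out (AC068580.4 higher and MBNL3, NOL4L, PDXK and SEC16A lower without shock wave replicate 2, GTF2F2 lower without shock wave replicate 3). Voom on recovered reads called 2 lower, PDXK and FAM168B. With the replicate number as a replicate block 0 genes were called in each direction. Deviations of same-numbered samples correlated at -0.012, -0.0058 and 0.028, and those of unlike-numbered samples at -0.035 to 0.041. These values cannot tell whether the numbers pair the samples. The number of the 37 with a positive change ran from 16 to 24 and their median from -0.08 to 0.11. Scaling to the same summed FPKM put the median of all genes at -0.11.

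Of the 37 genes 16 kept their sign in each alternative, among them MPC1, SDHA, SDHD, PDP2 and CS, and 21 changed it at least once, none of them called. The cause was not tested. With quantile normalization ACO1 was at 0.0013, IDH2 at -0.025, SUCLG2 and MPC2 at -0.0055 each and PDK3 at 0.033. With the same summed FPKM IDH3G was at -0.044, SUCLA2 at -0.080, SUCLG2 at -0.078, MPC2 at -0.079 and FH at -0.023. With the length trend removed ACO1 was at 0.15, IDH3G at -0.039 and SDHC at 0.16. Voom gave PDK3 0.016 and PC -0.012. With the leading transcript in place of the gene, IDH3G was at -0.16, DLST at 0.071, SUCLA2 at -0.68, PDK3 at 0.52, PCK2 at 0.58 and ME2 at -0.12. With protein-coding transcripts only, chosen after seeing the data, IDH3A was at 0.052, IDH3B at -0.17, DLST at 0.14, SUCLA2 at -0.44, PDHB at 0.74, PDK3 at 0.0087, PC at -0.15 and ME2 at -0.041. With 1 library left out, 13 genes changed sign: DLD ran from -0.12 to 0.42, GOT2 from -0.16 to 0.094, IDH1 from -0.43 to 0.97, IDH3A from -0.76 to 0.059, IDH3G from -0.70 to 0.74, MDH1 from -0.25 to 0.17 and MPC2 from -0.0071 to 0.11. PDHB ran from -0.10 to 0.032, PDK3 from -0.12 to 0.046, PDP1 from -0.59 to 0.18, SDHC from -0.13 to 0.0020, SUCLA2 from -0.11 to 0.13 and SUCLG2 from -0.040 to 0.13. With a filter of 5 FPKM, 34 of the 37 were tested. Low read counts limit MPC1, PDP2 and PDK3, and 3 libraries a group limit all values.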
